A study of Mus musculus with 2 samples.

Results

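Levels are given here for 10 genes of the perineuronal net and the brain's proteoglycan matrix, out of 43346 Ensembl genes measured in poly(A) RNA of mouse brain. The members were taken by symbol from a fixed set of names: the lecticans Acan, Bcan, Ncan and Vcan, the link proteins Hapln1, Hapln2 and Hapln4, the tenascins Tnr and Tnc, and the receptor phosphatase Ptprz1. All 10 were found in both libraries, with 33 annotated transcripts in the deposited transcript tables. The rule that picks them uses no measured value, but the set was chosen with earlier results of these data known. The tissue was brain from 1 male C57BL/6J mouse, an adult of 10 weeks from an inbred strain, with no treatment and no engineered allele in the labels. Its RNA was extracted with a kit for lipid-rich tissue and sequenced in 2 libraries, which the labels call technical replicates 2 and 1 of biological replicate 1. Replicate 2 was made later than the publication that the labels name, and the only comparison the design allows is between the libraries. Their spread holds no difference between animals, each side is 1 library, and no difference has a replicate check.

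The brain's extracellular matrix is built on hyaluronan, a long sugar chain made at the cell surface. Lecticans are chondroitin sulfate proteoglycans that bind hyaluronan at one end and, through a lectin domain, tenascin-R at the other, and link proteins lock the hyaluronan bond in place. Around certain neurons, above all fast-spiking interneurons with parvalbumin, this mesh condenses into perineuronal nets as the brain matures. Ptprz1 is a chondroitin sulfate-bearing receptor phosphatase of glia and their precursors, and its secreted form, phosphacan, binds tenascins and cell adhesion molecules.

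The libraries held 17828479 counts in replicate 2 and 18302506 in replicate 1. They differed across the whole transcriptome. Mitochondrial genes and their nuclear copies held 28.1% of TPM (a transcript level scaled for length and to one total in each library) in replicate 2 and 63.1% in replicate 1. The median log2 ratio of 14229 genes averaging 1 TPM or more was 0.88, and 0.09 with TPM rescaled without those mitochondrial genes and copies. Log2 ratios are of TPM + 1, replicate 2 over replicate 1, and understate the change of low genes. Across 14188 of those genes the ratio followed the GC content of the transcripts, the share of G and C bases, with a Spearman rho of 0.89 across genes, which are not independent replicates. Counts were also compared by a two-sided exact binomial test per gene with library sizes scaled by TMM, the trimmed mean of M-values, and a gene was called where the p adjusted by Benjamini-Hochberg was under 0.05 and the fold was at least 2. This test compares the reads of these libraries, not conditions. It called 34.5% of 16320 tested genes higher in replicate 2 and 23.8% lower, and every count of called genes below is to be read against those shares.

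Of the 10 matrix genes, 5 were called higher in replicate 2 (Bcan, Hapln4, Acan, Tnc and Ncan), 3 were called lower (Hapln1, Vcan and Ptprz1), and Hapln2 and Tnr were called neither way. With library totals in place of TMM sizes, 6 were higher and 1 was lower, against 43.4% and 7.83% of all genes tested. The summed level of the 10 genes was 337 TPM in replicate 2 and 117 TPM in replicate 1, a ratio of 2.87. Without Bcan the sums were 209 TPM in replicate 2 and 116 TPM in replicate 1, a ratio of 1.80, and with all 10 genes and TPM rescaled without mitochondrial genes and copies the ratio was 1.47. Their median log2 TPM ratio was 0.82, beside 0.88 for the genes averaging 1 TPM or more. The order of the genes changed too. In replicate 2 it ran Bcan, Hapln4, Ptprz1, Ncan, Tnr, Hapln2, Hapln1, Vcan, Tnc, Acan, and in replicate 1 it ran Ptprz1, Tnr, Hapln1, Ncan, Hapln2, Hapln4, Vcan, Bcan, Tnc, Acan. Tnc and Acan stood last in both. Neighbours whose 95% counting intervals overlapped were Ptprz1 and Ncan, and Tnc and Acan, in replicate 2, and in replicate 1 Hapln2 and Hapln4, Hapln4 and Vcan, and Tnc and Acan. In bulk tissue, fewer cells of a type and less RNA per cell cannot be told apart.

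**Figure D1:**
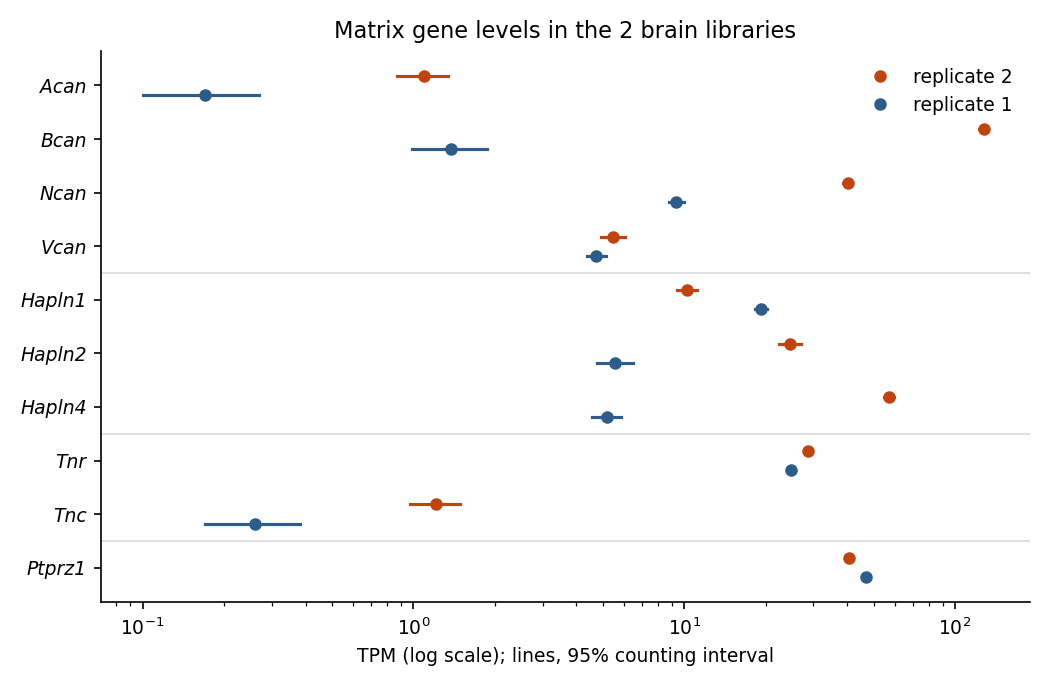
Level of each matrix gene in TPM (log axis) in replicate 2 (orange) and replicate 1 (blue), 1 point a library, with 95% Poisson counting intervals as lines. Bcan stands apart, at 127 TPM in replicate 2 and 1.38 TPM in replicate 1, while Hapln1 and Ptprz1 are the genes whose TPM is lower in replicate 2.

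Lecticans share a core plan: a hyaluronan-binding head, a central stretch that carries the chondroitin sulfate chains, and a tail with the lectin domain. Their sum was 174 TPM in replicate 2 and 15.6 TPM in replicate 1, which was 51.7% of the summed level of the 10 genes in replicate 2 and 13.3% in replicate 1. Which lectican led differed: Bcan held 73.2% of the lectican sum in replicate 2 and 8.82% in replicate 1, and Ncan held 23.0% in replicate 2 and 59.8% in replicate 1. The share of Vcan was 3.13% in replicate 2 and 30.2% in replicate 1. Acan held the least in each library, 0.626% in replicate 2 and 1.09% in replicate 1.

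The central stretch is where the family members differ most. The first 90 bases of a large exon of that stretch are shown with G and C in capitals, since the library ratios followed base composition. These and all sequences below are GENCODE M21 transcript sequences on GRCm38, 5′ to 3′ on the gene's own strand.
Bcan: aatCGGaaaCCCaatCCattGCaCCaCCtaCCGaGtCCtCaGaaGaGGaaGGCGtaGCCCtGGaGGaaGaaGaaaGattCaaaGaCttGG
Ncan: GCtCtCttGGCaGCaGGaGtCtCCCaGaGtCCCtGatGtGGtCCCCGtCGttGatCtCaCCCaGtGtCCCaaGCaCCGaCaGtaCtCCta
Acan: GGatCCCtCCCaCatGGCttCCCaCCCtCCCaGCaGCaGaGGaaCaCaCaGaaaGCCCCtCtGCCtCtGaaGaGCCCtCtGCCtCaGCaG
Vcan: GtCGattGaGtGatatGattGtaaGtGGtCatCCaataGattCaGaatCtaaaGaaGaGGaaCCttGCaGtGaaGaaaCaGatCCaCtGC
The Bcan stretch lies at chr3:87993553-87993642 (minus strand) in exon 8, an exon of 588 bases with 61.4% GC. The Ncan stretch lies at chr8:70108560-70108649 (minus) in exon 8, of 1209 bases and 60.0% GC. The Acan stretch lies at chr7:79097752-79097841 (plus) in exon 12, of 3483 bases and 52.7% GC. The Vcan stretch lies at chr13:89693412-89693501 (minus) in exon 8, of 5217 bases and 43.3% GC. In Vcan a further large exon, described below, also belongs to the central stretch and is not shown here. Over the whole exon Vcan is thus the longest and least GC-rich, and Bcan the shortest and richest. The 90 bases shown do not follow that order, with 50.0% GC in Bcan, 58.9% in Ncan, 62.2% in Acan and 40.0% in Vcan.

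Bcan, which encodes brevican, the smallest lectican and a major one of the adult brain (ENSMUSG00000004892.9, GRCm38 chr3:87987531-88000230, minus strand), stood at 127 TPM in replicate 2, against 1.38 TPM in replicate 1 (mean 64.4 ± 89.1 TPM, SD, n = 2 technical replicates). The estimates rested on 3314 counts in replicate 2 and 41 in replicate 1. Among all 43346 genes it ranked 1068th by TPM in replicate 2 and 10838th in replicate 1. The TPM ratio was 92.3, with a 95% counting interval of 67.9 to 128.9, and the log2 ratio was 5.75 on the TPM + 1 scale and 5.75 on TMM-scaled counts. This is the widest gap among the 10 genes. The interval leaves out how reads were shared among transcripts. The authors' posterior mean TPM was 118.5 in replicate 2 and 2.06 in replicate 1, with bounds of 1.23 to 2.99 in replicate 1. On those means the log2 ratio of TPM + 1 was 5.29. The transcripts of Bcan have 60.1% GC, more than those of 95.6% of genes averaging 1 TPM or more. At that GC content the trend across genes gives a log2 ratio of 3.55, and Bcan lay 2.21 above it.

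Ncan, which encodes neurocan, a lectican of the developing and adult brain (ENSMUSG00000002341.8, chr8:70093085-70120873, minus), stood at 40.1 TPM in replicate 2, against 9.36 TPM in replicate 1 (mean 24.7 ± 21.7 TPM, SD, n = 2), from 3047 counts in replicate 2 and 943 in replicate 1. The TPM ratio was 4.29 (counting interval 3.98 to 4.61). Ncan was called higher, with a log2 ratio of 1.12 on TMM-scaled counts and 1.99 on the TPM + 1 scale. Its transcript has 55.1% GC, and the ratio lay 0.41 below the trend for that content, which turns its sign.

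Acan, which encodes aggrecan, the lectican most closely tied to perineuronal nets in the brain (ENSMUSG00000030607.6, chr7:79053483-79115099, plus), was scarce. It stood at 1.09 TPM in replicate 2, against 0.17 TPM in replicate 1 (mean 0.63 ± 0.65 TPM, SD, n = 2), from 85 counts in replicate 2 and 18 in replicate 1. The ratio of 6.41 had a counting interval from 3.82 to 11.3. On TMM-scaled counts the log2 ratio was 1.64, a call of higher, and on the TPM + 1 scale it was 0.84. The single transcript listed for Acan has 54.8% GC, where the GC trend is 2.30, and the TPM + 1 ratio lay 1.46 below it. At 1.09 TPM in replicate 2, the added 1 TPM keeps the ratio below that trend whatever replicate 1 held. The sign with the trend removed therefore gives no direction for Acan. With 0.1 TPM added instead, the log2 ratio before removing the trend was 2.14.

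Vcan, which encodes versican, a lectican of white matter and glial precursors (ENSMUSG00000021614.12, chr13:89655312-89742509, minus), had 5.45 TPM in replicate 2, against 4.73 TPM in replicate 1 (mean 5.09 ± 0.51 TPM, SD, n = 2), from 374 counts in replicate 2 and 605 in replicate 1. Its TPM ratio was 1.15 (counting interval 1.01 to 1.31, which leaves out how reads were shared among transcripts). The authors' bounds on TPM overlapped, at 4.24 to 10.3 in replicate 2 and 4.47 to 7.31 in replicate 1. Without the short fragment Vcan-204, described below, the sums were 4.52 TPM in replicate 2 and 4.73 in replicate 1. On TMM-scaled counts the log2 ratio was -1.27, called lower, against 0.17 on the TPM + 1 scale and -0.69 on that scale with mitochondrial genes and their copies left out. With 44.3% GC, Vcan lay 0.28 above the GC trend. With library totals the log2 count ratio was -0.66. The effective length that turns counts into TPM was 6330 bases in replicate 2 and 8907 in replicate 1, so the sign for Vcan depends on the unit as well as the scaling.

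Versican is spliced into forms that keep or skip a pair of large exons, alpha (exon 7, 2880 bases) and beta (exon 8, 5217 bases), which carry the chondroitin sulfate sites. The junctions that tell the forms apart are shown, with the downstream exon in capitals.
Form V0 or V2, into alpha: cctactgctttaaacCTAAACAGAATATAT
Form V0, alpha to beta: gagaaaacaagacagGTCGATTGAGTGATA
Form V1, into beta: cctactgctttaaacGTCGATTGAGTGATA
Form V2, past beta: gagaaaacaagacagGACCTGATCTCTGCA
Form V3, past both: cctactgctttaaacGACCTGATCTCTGCA
Exon alpha lies at chr13:89702918-89705797 and exon beta at chr13:89688285-89693501. Vcan-203, which has both exons as V0 does, held 37.6% of the gene's TPM in replicate 2 and 57.5% in replicate 1. Vcan-202, which has alpha only as V2 does, held 26.9% in replicate 2 and 27.5% in replicate 1. These are the forms with alpha, and by these shares they led in both libraries. In the authors' posterior mean shares Vcan-203 held 27.0% in replicate 2 and 44.2% in replicate 1, and in replicate 2 the fragment Vcan-204 stood above it, at 30.3%. Vcan-206, with beta only as V1 has, was at 0.99% in replicate 2 and 1.60% in replicate 1, and Vcan-201, with neither as V3, was listed at 0 in both. The remaining Vcan TPM went to short annotated fragments. Vcan-204 took 17.0% in replicate 2 and was listed at 0 in replicate 1, Vcan-208 took 15.5% in replicate 2 and 2.99% in replicate 1, and Vcan-207, a retained intron, took 2.04% in replicate 2 and 10.5% in replicate 1. In replicate 2 the share of Vcan-204 rested on an expected count of 1.14, over a transcript of 294 bases. Genes that overlap a member on the other strand held few counts, the most in Gm4117 at Vcan, with 6 in replicate 2 and 9 in replicate 1.

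All 4 lecticans end in a lectin domain that binds tenascin-R, and a 145-base exon of that domain has the same length in each. It is shown for Bcan and Vcan, the members richest and poorest in GC, with G and C in capitals.
Bcan, exon 12: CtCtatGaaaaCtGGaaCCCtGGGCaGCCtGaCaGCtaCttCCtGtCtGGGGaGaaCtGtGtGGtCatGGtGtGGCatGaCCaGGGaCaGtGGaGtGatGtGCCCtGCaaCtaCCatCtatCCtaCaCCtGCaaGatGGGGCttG
Vcan, exon 13: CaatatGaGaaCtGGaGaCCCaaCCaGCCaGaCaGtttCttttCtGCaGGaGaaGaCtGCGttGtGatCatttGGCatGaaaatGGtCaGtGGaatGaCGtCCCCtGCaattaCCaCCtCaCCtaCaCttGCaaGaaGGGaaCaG
The Bcan exon lies at chr3:87988693-87988837 and the Vcan exon at chr13:89661917-89662061, both on the minus strand. The sequences are the same at 101 of 145 positions (69.7%). G and C make up 79 bases in Bcan and 69 in Vcan, so within this conserved exon the gap in GC is smaller than between the central exons.

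Bcan also had annotated transcripts that keep an intron. Bcan-201, the full coding transcript, held 68.1% of the gene's TPM in replicate 2 and 46.3% in replicate 1. Bcan-206 held 19.1% in replicate 2 and 53.7% in replicate 1. It is annotated as a retained intron, and its last exon of 1129 bases (chr3:87992514-87993642) is exon 8 run on for 541 bases into the intron. The replicate 1 shares rested on expected counts of 27.2 for Bcan-201 and 13.8 for Bcan-206, and the authors' posterior mean shares there were 30.0% for Bcan-201 and 33.4% for Bcan-206. Brevican is known as a secreted protein and, in rat, also as a form anchored in the membrane by a lipid.

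Link proteins clamp the lectican head onto hyaluronan. Their sum was 92.1 TPM in replicate 2 and 29.9 TPM in replicate 1. As with the lecticans, the leading gene differed: Hapln4 held 62.1% of the link protein sum in replicate 2 and 17.3% in replicate 1, Hapln2 held 26.7% in replicate 2 and 18.5% in replicate 1, and Hapln1 held 11.1% in replicate 2 and 64.2% in replicate 1.

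A 90-base stretch of the coding sequence of the hyaluronan-binding link module is shown for each link protein, with G and C in capitals, because these genes code for like domains and differ widely in base composition.
Hapln1: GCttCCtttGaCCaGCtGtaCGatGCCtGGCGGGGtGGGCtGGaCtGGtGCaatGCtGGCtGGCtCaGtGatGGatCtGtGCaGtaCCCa
Hapln2: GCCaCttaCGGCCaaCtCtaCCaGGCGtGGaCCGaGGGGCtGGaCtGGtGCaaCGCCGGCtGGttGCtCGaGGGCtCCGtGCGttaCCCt
Hapln4: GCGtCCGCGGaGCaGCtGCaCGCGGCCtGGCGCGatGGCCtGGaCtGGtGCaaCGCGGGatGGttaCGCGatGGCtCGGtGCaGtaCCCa
The stretch of Hapln1 lies at chr13:89605287-89605376 (plus) and that of Hapln4 at chr8:70086900-70086989 (plus). That of Hapln2 runs from exon 5 into exon 6 between chr3:88023339-88023548 (minus), with an intron spliced out. G and C make up 54 of the 90 bases in Hapln1, 60 in Hapln2 and 63 in Hapln4. Hapln1 and Hapln4 are the same at 70 of 90 positions, Hapln2 and Hapln4 at 63, and Hapln1 and Hapln2 at 61.

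Hapln4, which encodes Bral2, a brain link protein of perineuronal nets (ENSMUSG00000007594.9, chr8:70083457-70090862, plus), stood at 57.2 TPM in replicate 2, against 5.17 TPM in replicate 1 (mean 31.2 ± 36.8 TPM, SD, n = 2), from 2103 counts in replicate 2 and 252 in replicate 1. The TPM ratio was 11.1 (counting interval 9.71 to 12.7), and the log2 ratio was 3.24 on the TPM + 1 scale. It was called higher, at a log2 ratio of 2.49 on TMM-scaled counts. Its transcript has 57.0% GC, and the ratio was 0.29 above the trend at that content.

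Hapln2, which encodes Bral1, a link protein of the nodes of Ranvier (ENSMUSG00000004894.6, chr3:88021750-88027583, minus), stood at 24.6 TPM in replicate 2, against 5.55 TPM in replicate 1 (mean 15.1 ± 13.5 TPM, SD, n = 2), from 470 counts in replicate 2 and 172 in replicate 1. Its TPM ratio of 4.44 (counting interval 3.72 to 5.31) was like that of Ncan, but on TMM-scaled counts the log2 ratio of 0.87 fell short of the 2-fold limit and it was not called. The effective length that turns counts into TPM was 1761 bases in replicate 2 and 2155 in replicate 1. For Ncan it was 7008 and 7012, so the likeness of the TPM ratios does not carry over to counts. Hapln2 passed with library totals, at 1.49. Its GC content of 58.1% places it 1.25 below the trend, the opposite direction.

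Most of the Hapln2 estimate went to a transcript without a coding sequence. ENSMUST00000160737.3, annotated as a retained intron and 2338 bases long, held 71.4% of the gene's TPM in replicate 2 and 100% in replicate 1. The coding transcript, ENSMUST00000005014.4, was at 2.21 TPM in replicate 2, with the authors' bounds at 0.963 and 3.43, and was listed at 0 in replicate 1, with an upper bound of 0.374. ENSMUST00000160150.1, a nonsense-mediated decay transcript, held 16.2% in replicate 2 and was listed at 0 in replicate 1. These transcripts share exons, and the shares are estimates from shared reads.

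Hapln1, which encodes the link protein first known from cartilage and needed for normal nets in the mouse brain (ENSMUSG00000021613.8, chr13:89539796-89611652, plus), went the other way. It stood at 10.2 TPM in replicate 2, against 19.2 TPM in replicate 1 (mean 14.7 ± 6.33 TPM, SD, n = 2), from 541 counts in replicate 2 and 1344 in replicate 1. The TPM ratio was 0.534 (counting interval 0.482 to 0.590). It was called lower, with a log2 ratio of -1.88 on TMM-scaled counts and -0.84 on the TPM + 1 scale. Its transcript has 39.8% GC, and only 4.40% of genes averaging 1 TPM or more have less. The ratio lay 0.24 below the trend at that content. Within the transcript the coding part has 51.2% GC and the 3′ UTR of 3506 bases has 33.0%. For Hapln4 the same parts have 66.7% and 51.3%. The transcript of Hapln1 is 5055 bases long in the deposited tables and 5715 in GENCODE M21, which gave the base composition.

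Tenascins are multi-armed glycoproteins that lecticans bind. Tnr, which encodes tenascin-R, the main tenascin of the adult brain and a cross-linker of nets (ENSMUSG00000015829.9, chr1:159523769-159931729, plus), had 28.7 TPM in replicate 2, against 24.9 TPM in replicate 1 (mean 26.8 ± 2.71 TPM, SD, n = 2), from 3428 counts in replicate 2 and 4181 in replicate 1. Tnr, Vcan and Ptprz1 were the members nearest to equal TPM in the libraries, and the ratio for Tnr was 1.15 (counting interval 1.10 to 1.21). It was not called. Its log2 ratio was 0.20 on the TPM + 1 scale, -0.74 on that scale without mitochondrial genes and copies, -0.86 on TMM-scaled counts and 0.31 below the GC trend, so its sign depends on the unit and scaling. The long coding transcript Tnr-202 held 91.4% of the gene's TPM in replicate 2 and 97.2% in replicate 1.

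Tnc, which encodes tenascin-C, abundant in development and in the injured brain and low in most of the adult one (ENSMUSG00000028364.11, chr4:63959785-64047015, minus), had 1.21 TPM in replicate 2, against 0.26 TPM in replicate 1 (mean 0.74 ± 0.67 TPM, SD, n = 2), from 91 counts in replicate 2 and 26 in replicate 1. The TPM ratio was 4.65 (counting interval 2.98 to 7.50). It was called higher at a log2 ratio of 1.21 on TMM-scaled counts. On the TPM + 1 scale the log2 ratio was 0.81, and it lay 0.90 below the trend of 1.71 at 52.8% GC. At 1.21 TPM in replicate 2, the added 1 TPM keeps Tnc below that trend whatever replicate 1 held. With 0.1 TPM added instead, the log2 ratio before removing the trend was 1.86. Tnc-204 held 100% of the gene's TPM in replicate 2 and 83.8% in replicate 1, and Tnc-201 was listed at 0 in replicate 2 and held 16.2% in replicate 1. Both hold 5 exons of 273 bases, the repeated unit of the gene's fibronectin-like arms, whereas Tnc-203, listed at 0 in both libraries, holds 6. In the authors' posterior mean shares Tnc-204 held 63.5% in replicate 2 and 41.9% in replicate 1, so the forms were not resolved at these counts.

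Ptprz1 (ENSMUSG00000068748.4, chr6:22875502-23052916, plus) was abundant in both libraries, at 40.5 TPM in replicate 2, against 46.8 TPM in replicate 1 (mean 43.6 ± 4.43 TPM, SD, n = 2), from 3461 counts in replicate 2 and 5300 in replicate 1. The TPM ratio was 0.866 (counting interval 0.829 to 0.904). It was called lower, at a log2 ratio of -1.19 on TMM-scaled counts, and its log2 ratio on the TPM + 1 scale was -0.20, or -1.16 with TPM rescaled without mitochondrial genes and copies. That rescaling raised the mean TPM of Ptprz1 to 91.5, of Tnr to 53.6, of Hapln1 to 33.1 and of Vcan to 10.2. Its transcript has 44.5% GC, and the ratio was 0.13 below the trend there. The deposited tables list 1 transcript for Ptprz1, of 8068 bases, where GENCODE M21 lists 6, so receptor and phosphacan-type forms were not separated. The deposited tables likewise list 1 transcript each for Acan, Ncan, Hapln1 and Hapln4.

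**Figure D2:**
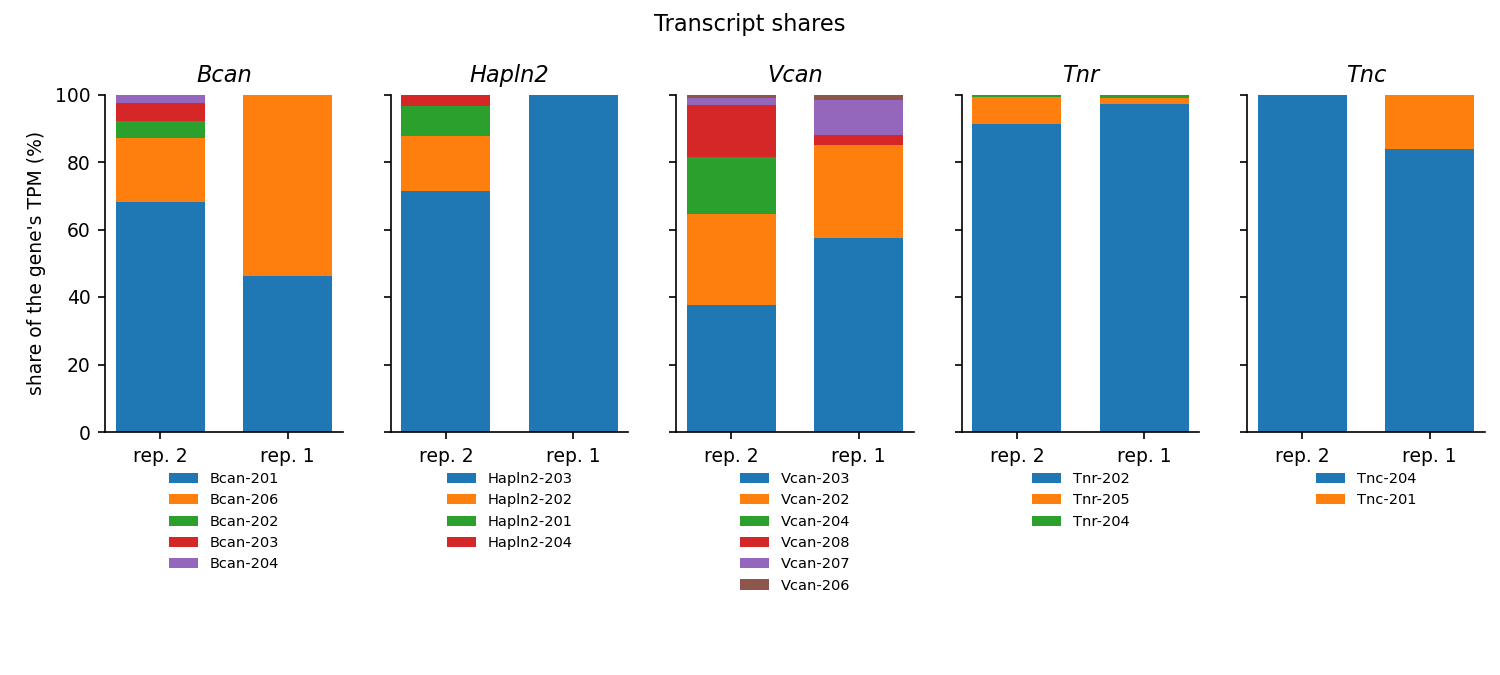
Share of each gene's TPM (%) held by its annotated transcripts in replicate 2 (left bar) and replicate 1 (right bar), for the 5 genes with several transcripts in the deposited tables. In Bcan and Hapln2 annotated retained introns hold large shares, and for Hapln2 the coding transcript takes 8.99% in replicate 2 and is listed at 0 in replicate 1.

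The ratios of the matrix genes ran with the base composition of their transcripts. The 4 genes under the median GC content of 49.9% (Hapln1, Vcan, Ptprz1 and Tnr) had log2 ratios from -0.84 to 0.20 on the TPM + 1 scale, and the other 6 had ratios from 0.81 to 5.75. On TMM-scaled counts the first 4 were all negative and the other 6 all positive. Across the 10 genes the Spearman rho between ratio and GC content was 0.95, a description over genes that share the same pair of libraries. Beyond removing the trend, the part of GC content in each ratio was not tested. With the lowess trend taken off the log2 ratio of TPM + 1, Bcan was past 1 upwards, and Acan and Hapln2 were past 1 downwards. Among the 14188 genes of the trend, 10.3% were past 1 upwards and 7.44% downwards, and Acan and Tnc, with a mean TPM under 1, are not among them. For Acan and Tnc the added 1 TPM keeps the ratio below the trend whatever replicate 1 held, so their place there shows no direction. In all 10 genes the coding part was richer in GC than the 3′ UTR, by the widest margin in Hapln2 (67.0% and 45.7%).

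**Figure D3:**
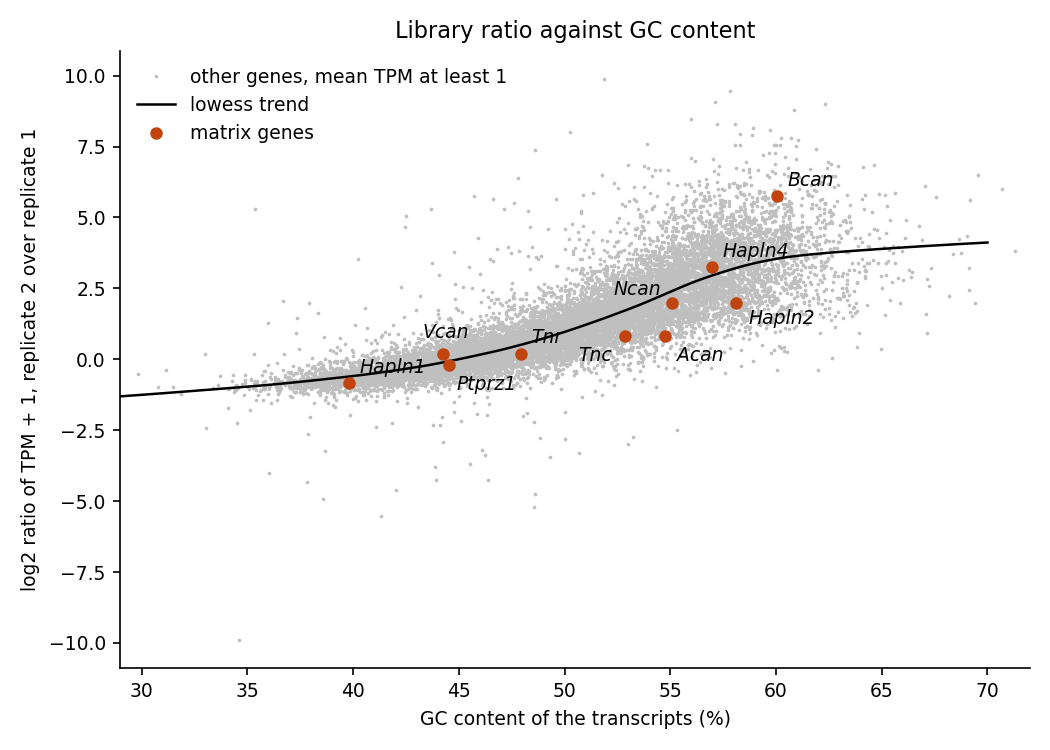
Log2 ratio of TPM + 1, replicate 2 over replicate 1, against GC content of the transcripts (%), for genes averaging 1 TPM or more (grey), the matrix genes (orange) and the lowess trend (line). The matrix genes range from Hapln1 at 39.8% GC and -0.84 to Bcan at 60.1% GC and 5.75. Bcan lies 2.21 above the line, and Acan, Hapln2 and Tnc lie 1.46, 1.25 and 0.90 below it. At the replicate 2 levels of Acan and Tnc, the added 1 TPM keeps both below the line whatever replicate 1 held.

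Lecticans and link proteins lie side by side in the genome, and the ratios of neighbours can be set beside each other. In each of 4 pairs no coding gene lay between lectican and link gene. Bcan and Hapln2 are 21519 bases apart on chromosome 3, with GC contents of 60.1% and 58.1% and log2 TPM + 1 ratios of 5.75 and 1.97. Ncan and Hapln4 are 2222 bases apart on chromosome 8, with 55.1% and 57.0% GC and ratios of 1.99 and 3.24. Vcan and Hapln1 are 43659 bases apart on chromosome 13, with 44.3% and 39.8% GC and ratios of 0.17 and -0.84, and both were called lower. Acan and Hapln3 are 2 bases apart on chromosome 7, with 54.8% and 56.0% GC and ratios of 0.84 and 1.08, and both were called higher. On the TPM + 1 scale both partners had ratios of the same sign in each pair except Vcan and Hapln1, where the sign for Vcan is unsettled. With the GC trend removed the partners had opposite signs in 3 pairs, at 2.21 for Bcan and -1.25 for Hapln2, -0.41 for Ncan and 0.29 for Hapln4, and 0.28 for Vcan and -0.24 for Hapln1. Acan and Hapln3 were both below the trend, at -1.46 and -1.62. At 1.09 TPM for Acan and 1.11 TPM for Hapln3 in replicate 2, the added 1 TPM sets that sign whatever replicate 1 held. Their like signs therefore say nothing about the pair. The level of the link gene relative to its lectican differed between libraries: Hapln2 over Bcan was 0.193 in replicate 2 and 4.02 in replicate 1, Hapln4 over Ncan was 1.43 in replicate 2 and 0.552 in replicate 1, and Hapln1 over Vcan was 1.88 in replicate 2 and 4.06 in replicate 1.

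Genes outside the 10 that make, cut or read this matrix were followed in 15 lists, of which 103 of 104 genes were measured and 98 had enough counts to be tested. Of these, 43 were called higher in replicate 2 and 12 lower, again beside 34.5% and 23.8% of all genes. In each list the 2 genes of highest mean TPM are given with values, 1 list excepted. Genes named below only as called, and also Pdgfra and Syt2, were named after their values were seen. Among the lecticans' relatives, 3 of 4 tested were higher (Hapln3, Tnxb and Cspg4) and none lower. Cspg5, neuroglycan C, had 90.8 TPM in replicate 2 and 26.5 in replicate 1 and was not called, and Cspg4, the NG2 proteoglycan of oligodendrocyte precursors, had 3.93 TPM in replicate 2 and 0.02 in replicate 1. With 2 counts in replicate 1, the ratio for Cspg4 of 196.5 has a counting interval from 54.0 to 1629. Hapln3, the link protein next to Acan, had 15 counts in replicate 2 and 0 in replicate 1. Against the 3 counts that a 0 allows in replicate 1, it was 5.13-fold higher as a share of all counts. That figure takes the 15 counts as exact, so it leaves out their counting error.

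Enzymes that build, sulfate or cut sugar chains were called in both directions. Of 8 tested hyaluronan genes, Hyal2, a hyaluronidase, was higher and Hmmr, a hyaluronan receptor, was lower. Hyal2 had 8.35 TPM in replicate 2 and 0.04 in replicate 1, and with 1 count in replicate 1 the ratio of 208.8 has a counting interval from 36.8 to 8309. Cemip, a hyaluronan-degrading protein, had 5.42 TPM in replicate 2 and 1.75 in replicate 1 and was not called. Among 14 genes that build chondroitin and dermatan chains, 6 were higher (Xylt1, Xylt2, B4galt7, B3gat3, Chpf and Chpf2) and 3 lower (Csgalnact1, Csgalnact2 and Dsel). B3gat3, which completes the linker on which the chain is built, had 144 TPM in replicate 2 and 0.39 in replicate 1, from 2210 counts in replicate 2 and 8 in replicate 1. Its transcripts have 61.6% GC, and its log2 ratio of 6.71 lay 3.01 above the trend. Fam20b, the kinase that phosphorylates the linker's xylose, had 41.3 TPM in replicate 2 and 27.5 in replicate 1 and was not called. Of 7 tested sulfotransferases, Chst12 and Chst14 were higher and none was lower. Chst11, a chondroitin 4-O-sulfotransferase, had 20.4 TPM in replicate 2 and 12.7 in replicate 1, and Chst15, which makes the doubly sulfated E unit, had 12.3 TPM in replicate 2 and 3.44 in replicate 1, and neither was called. Chst13 had 0 counts in both libraries.

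Proteases that cut lecticans gave 3 higher (Adamts8, Mmp2 and Mmp14) and 1 lower (Adamts5) of 9. Adamts4, an aggrecanase, had 10.7 TPM in replicate 2 and 3.64 in replicate 1 and was not called, and Mmp14, a membrane-bound metalloprotease, had 7.77 TPM in replicate 2 and 0.78 in replicate 1. Among the inhibitors, Timp3 was lower on TMM-scaled counts, at 42.5 TPM in replicate 2 and 45.1 in replicate 1. Timp2, another inhibitor, had 125.9 TPM in replicate 2 and 43.0 in replicate 1 and was not called, and Timp1 had 6 counts in replicate 2 and 0 in replicate 1.

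Receptors for chondroitin sulfate were called in 6 of 6 cases, 5 higher (Ptprs, Ptprf, Rtn4r, Rtn4rl1 and Rtn4rl2) and Ptprd lower. Ptprs, the receptor through which chondroitin sulfate limits axon growth, had 92.8 TPM in replicate 2 and 1.72 in replicate 1, at 57.9% GC. Ptprd, a phosphatase of the same family, had 68.7 TPM in replicate 2 and 87.7 in replicate 1, at 42.5% GC. Rtn4rl2 had 218 counts in replicate 2 and 0 in replicate 1, at least 74.6-fold higher as a share of all counts. The list's median log2 ratio was 4.31 at a median GC content of 57.9%, and 0.73 with the GC trend removed.

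Of 7 ligands and partners of Ptprz1, 4 were higher (Ptn, Mdk, Nfasc and L1cam) and none lower. Ptn, pleiotrophin, a growth factor that binds Ptprz1, had 141 TPM in replicate 2 and 4.58 in replicate 1, from 2806 counts in replicate 2 and 121 in replicate 1, a ratio of 30.8 (counting interval 25.7 to 37.3). Its transcripts have only 42.4% GC, at which the trend gives -0.34, and its log2 ratio of 4.67 lay 5.01 above the trend. The receptor and this ligand thus stood at 40.5 and 141 TPM in replicate 2 and at 46.8 and 4.58 TPM in replicate 1. Cntn1, the adhesion molecule contactin-1 that Ptprz1 binds, had 122.7 TPM in replicate 2 and 119.5 in replicate 1 and was not called. Among secreted proteins found with nets, 4 of 10 were higher (Nptx2, Nptxr, Crtac1 and Agrn) and Sema3a was lower. Nptxr, the neuronal pentraxin receptor, had 213 TPM in replicate 2 and 13.3 in replicate 1, and Nptx1, a neuronal pentraxin, had 107.6 TPM in replicate 2 and 38.5 in replicate 1 and was not called.

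Markers of the cells that make or carry this matrix differed between the libraries as well, and no marker gene was at 0 in either library. Among markers of fast-spiking neurons, Pvalb and Kcnc1 were higher. Pvalb, parvalbumin, had 165.5 TPM in replicate 2 and 27.9 in replicate 1, and Kcnc1, a fast potassium channel, had 77.2 TPM in replicate 2 and 14.2 in replicate 1. The 4 measured markers of oligodendrocyte precursors summed to 71.3 TPM in replicate 2 and 20.4 in replicate 1. Sox10 (23.4 TPM in replicate 2 and 0.44 in replicate 1) and Gpr17 were called higher. Olig2, at 17.4 TPM in replicate 2 and 7.38 in replicate 1, was not called. Pdgfra, at 12.5 TPM in replicate 2 and 9.52 in replicate 1, was not called either. On TMM-scaled counts the log2 ratio was -0.59 for Pdgfra and 0.25 for Olig2, so the markers did not all go the same way. The precursor sum was larger in replicate 2 on the TPM scale, on which the median gene had a log2 ratio of 0.88.

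The 6 astrocyte markers summed to 903 TPM in replicate 2 and 811 in replicate 1, with Aldh1l1 and Gfap higher and Aqp4 and Slc1a2 lower. Of the glutamate transporters, Slc1a2 had 346 TPM in replicate 2 and 397 in replicate 1, and Slc1a3 had 254.5 TPM in replicate 2 and 217 in replicate 1. Among oligodendrocyte markers, Mag and Cnp were higher, while the myelin gene Mobp (831 TPM in replicate 2 and 694 in replicate 1) was not called. The 5 neuron markers summed to 4189 TPM in replicate 2 and 4179 in replicate 1, with Rbfox3 and Slc17a7 higher, Snap25 (2764 TPM in replicate 2 and 3457 in replicate 1) lower and Syt1 (569.7 TPM in replicate 2 and 503 in replicate 1) not called. Vessel and meningeal markers summed to 137.7 TPM in replicate 2 and 94.2 in replicate 1, with 4 of 6 higher (Cldn5, Pecam1, Pdgfrb and Col1a1) and Rgs5 lower. Cldn5, a tight junction protein, had 48.6 TPM in replicate 2 and 0.40 in replicate 1, and Rgs5, a pericyte gene, had 61.4 TPM in replicate 2 and 88.0 in replicate 1. Without Rgs5 the vessel and meningeal sum was 76.2 TPM in replicate 2 and 6.17 in replicate 1. Within each of the astrocyte, neuron and vessel lists, markers of the same cells were called in opposite directions. The part of these markers in the levels of the matrix genes was not tested.

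**Figure D4:**
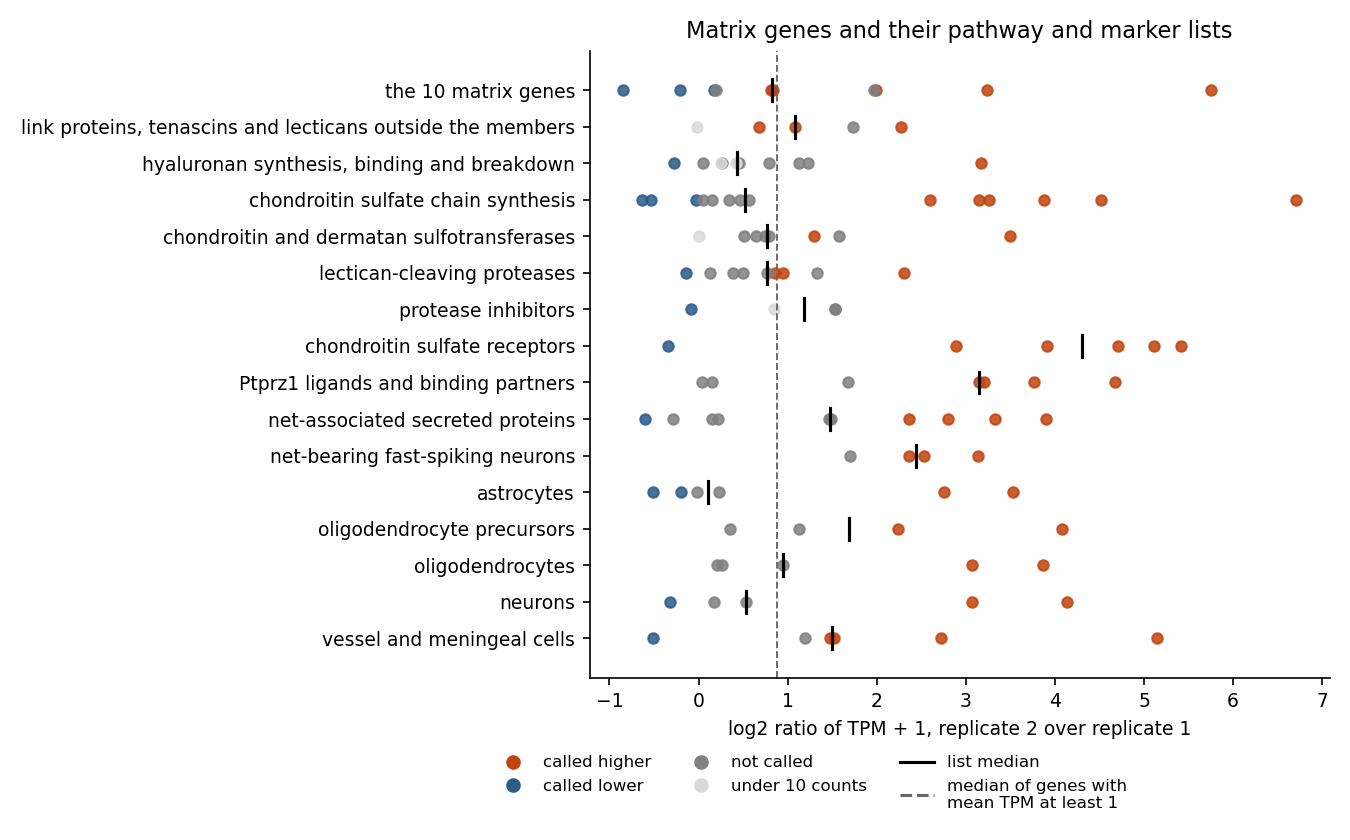
Log2 ratio of TPM + 1, replicate 2 over replicate 1, for each measured gene of the matrix set and of the 15 lists, coloured by the call on TMM-scaled counts, with list medians (black bars) and the median of 0.88 over genes averaging 1 TPM or more (dashed line). Most lists spread on both sides of the dashed line, while 5 of the 6 chondroitin sulfate receptors lie to its right.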

How the data were processed

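Poly(A) RNA of 1 brain was measured in 2 libraries, each with tables per gene and per transcript. Expected counts, which need not be whole, TPM, FPKM and the percent of a gene's TPM held by each transcript were deposited by the authors, with posterior means beside them, per the file headers. The build is mm10 and the annotation GENCODE M4, per the text listings of the files. The aligner and quantifier: not given in the sources used here. Of the table rows, 43346 were Ensembl genes, and 26345 other rows, holding 1 count in replicate 2 and 0 in replicate 1, were left out.

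The members and lists were chosen with earlier results of these data known. Symbols, positions, GC content (weighted by TPM) and sequences came from GENCODE M21 (GRCm38). Tmem2 was matched as Cemip2, and Lhfpl3 was not analysed here. The named genes were the 10 members, the 2 list genes of highest mean TPM in each list, list genes at 0 counts, and transcripts with at least 10% of a member in either library. Other list genes were named after their values were seen. Some list genes are not reported here.

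Expected counts were rounded and compared by a two-sided exact binomial test per gene with at least 10 counts in the sum, with TMM sizes (edgeR 4.0.16, R 4.3.3), Benjamini-Hochberg adjustment over all tested genes, and 0.5 added to each count for the fold. Neither the quasi-likelihood test of edgeR nor the test of DESeq2 could be fitted with 1 library a side, and p-values would measure only the reads of these libraries. Replicate 2 held 17828479 counts and replicate 1 held 18302506. Intervals (95%, Poisson for a level and exact Clopper-Pearson for a ratio) and the floor of 3 counts for a 0 cover counting error only. Trends on GC content and length used lowess with a fraction of 0.2 (statsmodels 0.14.6). Scripts were tested on simulated data. Other sizes, filters, fold limits and units were tried as alternatives. The tests ran in scipy 1.17.1 under Python 3.11.15, with pandas 2.3.3 and numpy 2.4.6 for the tables and matplotlib 3.10.9 for the plots.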

Additional observations from a re-analysis of the deposited data

How the results depend on the processing

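Bcan was called higher under every setting tried for the calls. Of the 5 matrix genes called higher, 1 was left with the GC trend removed and 3 with a length trend removed. Acan and Tnc could not pass with the GC trend removed, because of the added 1 TPM. Of the 3 called lower, 1 was left with library totals, 1 with the length trend removed and 0 with a log2 ratio of TPM + 1 past 1. With the GC trend removed 0 of the 3 were left, and the genes past 1 downwards were Acan and Hapln2 instead. DESeq2 size factors and no filter on low counts left these counts at 5 and 3. Of the list genes, 9 in place of 43 were higher with the GC trend removed, and in place of 12 lower there were 3 with library totals, 24 at 1.5-fold and 0 with the TPM ratio past 1. Low list genes such as Hapln3 and Tnxb likewise could not pass upwards with the GC trend removed. Removing the GC trend reversed the log2 ratios of Ncan (-0.41), Hapln2 (-1.25) and Tnr (-0.31). The trend also holds the shift common to all genes, with a median log2 ratio of 0.88, so a turned sign need not come from GC content. Before removal Tnr already lay 0.68 below that median, and Ncan and Hapln2 lay 1.11 and 1.09 above it. Removing the trend also turned the signs of Acan (-1.46) and Tnc (-0.90), but at their levels in replicate 2 the added 1 TPM set that outcome. Vcan and Tnr reversed with FPKM (-0.13 and -0.15), with TMM-scaled counts (-1.27 and -0.86) and, in an alternative chosen after seeing the data, without mitochondrial genes and copies (-0.69 and -0.74). Vcan also reversed without its short fragment Vcan-204 (-0.054), likewise chosen after seeing the data, as were the sums without Bcan and without mitochondrial genes. The cause was not tested, beyond what each alternative's own construction sets: FPKM and the rescaling without mitochondrial genes change the scale of a whole library, and TMM-scaled counts also leave out the effective length of each gene. TMM sizes shift log2 count ratios by 0.61 against totals. Leaving out either library left 1 value a gene and no ratio. Posterior mean shares moved 8 of 10 leading transcript shares by more than their counting error. Posterior mean TPM moved the log2 ratio of 1 member, Bcan (5.29). Counts of 18 for Acan, 26 for Tnc and 41 for Bcan in replicate 1 limit the precision of their ratios. No paired analysis was possible because there is 1 group, so no replicate number is shared between groups.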
